A study of Mus musculus with 4 samples.

Results

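S1pr1, S1pr4, Klf2 and Cd69 are 4 genes of lymphocyte egress and homing, chosen by name from the 31053 genes listed in the feature tables, and all 4 were found there. Their levels and joint detection were read in T cells and B cells from the pancreas and the pancreatic lymph node of mice described as pre-diabetic. Each group was 1 library of pooled female mice. The pancreas control and pancreas CD4-Cre libraries held flow-sorted CD45+ leukocytes of 4 mice aged 12 weeks each, and the lymph node control and lymph node CD4-Cre libraries held magnetically selected CD3+ cells of 5 mice aged 8 weeks each. Control animals had the genotype Ocabfl/fl, with floxed alleles of Ocab (the older name of Pou2af1, a transcriptional coactivator best known from B cells), and the CD4-Cre animals had the genotype Ocabfl/fl.CD4-Cre. The floxed alleles are thus shared by both genotypes, and the controls carried no Cre. The Cd4 promoter drives Cre in T cells, and because developing T cells pass through a stage with both CD4 and CD8, it is known to act in CD8 T cells as well. The strain is not named in the labels.

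Sphingosine-1-phosphate (S1P) is a lipid that is abundant in blood and lymph and scarce inside tissues, and lymphocytes leave lymphoid organs by following it. S1pr1 is the receptor that carries T and B cells out along this gradient. S1pr4 is a second S1P receptor of blood cells. Klf2 is a zinc finger transcription factor of resting lymphocytes that turns on S1pr1. Cd69 is an early activation antigen that binds the S1pr1 protein and takes it off the cell surface, so that activated cells are held in the tissue, a step that acts on protein and is not seen in RNA counts.

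All 4 genes are annotated as protein coding (GRCm38, GENCODE M21). S1pr1 (ENSMUSG00000045092) lies at chr3:115710433-115715072 on the minus strand and S1pr4 (ENSMUSG00000044199) at chr10:81497747-81500132 on the minus strand. Klf2 (ENSMUSG00000055148) lies at chr8:72319033-72321656 on the plus strand and Cd69 (ENSMUSG00000030156) at chr6:129267325-129275436 on the minus strand. The promoters of S1pr4 and Klf2, the 2 of the 4 genes matched in the RefSeq table (GRCm38.p6), are shown because Klf2 and the S1P receptors were detected together in single barcodes, as described further on. Each sequence is the 250 bases before the RefSeq transcription start, read 5′ to 3′ on the gene's strand. Capitals mark the CACCC box (GGGTG on the other strand), the kind of site that Klf proteins bind, and in Klf2 also the MEF2 box, the 5 bases CTAAA followed at once by their reverse complement, a sequence bound by MEF2 factors.
S1pr4 promoter, chr10:81500138-81500387, minus strand: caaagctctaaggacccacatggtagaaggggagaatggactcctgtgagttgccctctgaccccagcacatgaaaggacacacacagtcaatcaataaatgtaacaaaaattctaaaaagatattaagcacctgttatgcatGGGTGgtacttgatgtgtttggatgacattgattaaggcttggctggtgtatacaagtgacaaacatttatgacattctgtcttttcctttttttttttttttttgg
Klf2 promoter, chr8:72318812-72319061, plus strand: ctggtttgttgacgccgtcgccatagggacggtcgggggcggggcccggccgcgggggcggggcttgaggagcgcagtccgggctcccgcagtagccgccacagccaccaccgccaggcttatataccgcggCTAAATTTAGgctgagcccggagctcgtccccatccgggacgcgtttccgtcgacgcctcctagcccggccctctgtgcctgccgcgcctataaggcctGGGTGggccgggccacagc
The S1pr4 window held 38.8% G and C, and the Klf2 window held 71.2%. On both strands, 1 CACCC box was found in each, 107 bases before the S1pr4 start and 19 bases before the Klf2 start. This short box was in 17087 of 32851 promoters of the same length, or 52%. The Klf2 window is set by the RefSeq start and ends past the GENCODE gene start at 72319033. Its CACCC box thus lies inside the GENCODE gene. The MEF2 box stood 118 bases before the Klf2 start and was in 13 promoters, or 0.0396%, and it was not found in the S1pr4 window. Searched on both strands, the FOXO box GTAAACA, held by 3.17% of promoters, was in neither window. The promoter box TATAAA, held by 12.4%, was in neither window as well. A match describes letters in a window and is not a shown binding site.

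A level is the sum of a gene's unique molecular identifiers (UMIs) in all barcodes of a class, scaled to counts per 1000000 UMIs of that class (CPM), with an exact Poisson 95% interval. The intervals cover counting error only. Cells are not replicates, and with 1 library per group every comparison is between libraries and has no test. The libraries held 14851217 to 32798133 UMIs over 3059 to 6963 listed barcodes. After the filters, 2843 to 5304 barcodes per lymph node library and 4004 to 6238 per pancreas library were kept, with medians of 3599 to 4634 UMIs. A T barcode had at least 2 UMIs of Cd3d, Cd3e and Cd3g together, and was called CD4-only or CD8-only from its Cd4, Cd8a and Cd8b1 UMIs. The CD4-only barcodes numbered 877 in pancreas control, 1991 in pancreas CD4-Cre and, in the lymph node, 1265 in control against 2630 in CD4-Cre. The CD8-only barcodes numbered 430, 656, 722 and 1507 in the same order. A B barcode had at least 2 UMIs of Cd79a and Ms4a1 together. There were 904 and 1340 of them in the pancreas libraries, and 43 and 1 in the lymph node libraries, which had been selected for CD3. Cd3e, a subunit of the T cell receptor complex, was detected in 98.4% to 99.9% of T barcodes per class and library, and Cd79a, part of the B cell receptor, in at most 0.954% of them. Cd79a was detected in 99.9% and 100% of pancreas B barcodes, and the T cell receptor gene Trac had 0 and 1 UMI in them. Pou2af1, the targeted gene, was at 6.21 CPM in CD4-only barcodes of both control libraries. The CD4-Cre libraries had 0.525 CPM in the pancreas and 0 in the lymph node. In pancreas B barcodes it was at 227 CPM in control and 247 CPM in CD4-Cre. Any pair of libraries shared 21 to 70 barcode sequences.

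S1pr1 was found mainly in T and B barcodes, and its level was higher in CD4-only than in CD8-only barcodes in all 4 libraries. In CD4-only barcodes it stood at 346 CPM (326 to 366) in pancreas control, 349 (336 to 362) in pancreas CD4-Cre and, in the lymph node, 317 (304 to 332) in control against 322 (312 to 333) in CD4-Cre. The CD4 values thus lay within a narrow band across tissue and genotype. In CD8-only barcodes the S1pr1 level was 122 CPM (107 to 139) in pancreas control, 181 (166 to 196) in pancreas CD4-Cre and, in the lymph node, 272 (257 to 289) in control against 268 (257 to 279) in CD4-Cre. Here the pancreas libraries were the low ones, and pancreas control was the lowest. Pancreas B barcodes had 150 CPM (138 to 162) of S1pr1 in control and 166 (156 to 177) in CD4-Cre. The order in pancreas control was CD4-only, then B and CD8-only, and in pancreas CD4-Cre it was CD4-only, then CD8-only and B. In each pancreas library the intervals of B and CD8-only barcodes overlapped. The remaining gated classes of the pancreas had little or none. NK barcodes (an Ncr1 UMI and no Cd3 UMI) had 16.9 and 29.2 CPM, from 11 and 27 UMIs, and macrophages had 31.6 and 2.04 CPM, from 23 and 1 UMIs. Conventional dendritic barcodes had 1 UMI in each library, and neutrophils had 0 UMIs, which allows up to 9.43 CPM in the 123 barcodes of control and up to 21.6 CPM in the 67 of CD4-Cre at a floor of 3 counts.

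S1pr4 was spread more evenly over lymphocytes. In CD4-only barcodes it stood at 119 CPM (107 to 131) in pancreas control, 139 (131 to 148) in pancreas CD4-Cre and, in the lymph node, 117 (109 to 126) in control against 106 (100 to 112) in CD4-Cre. In CD8-only barcodes it stood at 103 CPM (89.1 to 118), 113 (101 to 125), 123 (112 to 134) and 108 (101 to 115) in the same order. NK barcodes were as high, at 121 and 132 CPM, and in each pancreas library the NK interval overlapped those of CD4-only and CD8-only barcodes. B barcodes were lower, at 74.7 CPM (66.4 to 83.8) in pancreas control and 76.1 (69.1 to 83.6) in pancreas CD4-Cre. Neutrophils, which had no S1pr1 UMI, had 44 and 86.3 CPM of S1pr4, and macrophages had 0 UMIs in either library, which allows up to 4.13 and 6.13 CPM.

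Klf2 was detected in every gated class. In CD4-only barcodes it stood at 1133 CPM (1097 to 1169) in pancreas control, 1228 (1203 to 1253) in pancreas CD4-Cre and, in the lymph node, 836 (814 to 859) in control against 785 (769 to 801) in CD4-Cre. The pancreas was the high tissue for this class, with no overlap between the tissues. In CD8-only barcodes Klf2 stood at 760 CPM (722 to 799), 875 (842 to 909), 1013 (982 to 1044) and 832 (812 to 851) in the same order, so that the order of CD4 and CD8 was reversed between the tissues. B barcodes had 859 CPM (831 to 889) in pancreas control and 1013 (987 to 1039) in pancreas CD4-Cre. The highest class in both pancreas libraries was neutrophils, at 1923 and 2588 CPM, and the lowest was conventional dendritic barcodes, at 265 and 245 CPM.

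Cd69 was highest in B barcodes, at 493 CPM (471 to 515) in pancreas control and 448 (431 to 466) in pancreas CD4-Cre. In CD4-only barcodes it stood at 222 CPM (207 to 239) in pancreas control, 197 (187 to 207) in pancreas CD4-Cre and, in the lymph node, 212 (200 to 223) in control against 126 (120 to 133) in CD4-Cre. In CD8-only barcodes it stood at 238 CPM (217 to 260), 201 (185 to 217), 178 (166 to 192) and 111 (104 to 119) in the same order. In both T classes the lymph node CD4-Cre library was the low one, and its interval met no other. NK barcodes followed the T cells at 146 and 141 CPM, and the myeloid classes had 3.62 to 43.1 CPM. The 43 B barcodes of lymph node control, with 18 Cd69 UMIs, were at 82.6 CPM (49 to 131), far below the pancreas B barcodes, while their S1pr1 at 156 CPM, S1pr4 at 87.2 CPM and Klf2 at 826 CPM were close to the pancreas values. The plot of levels by class shows these values side by side.

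**Figure D1:**
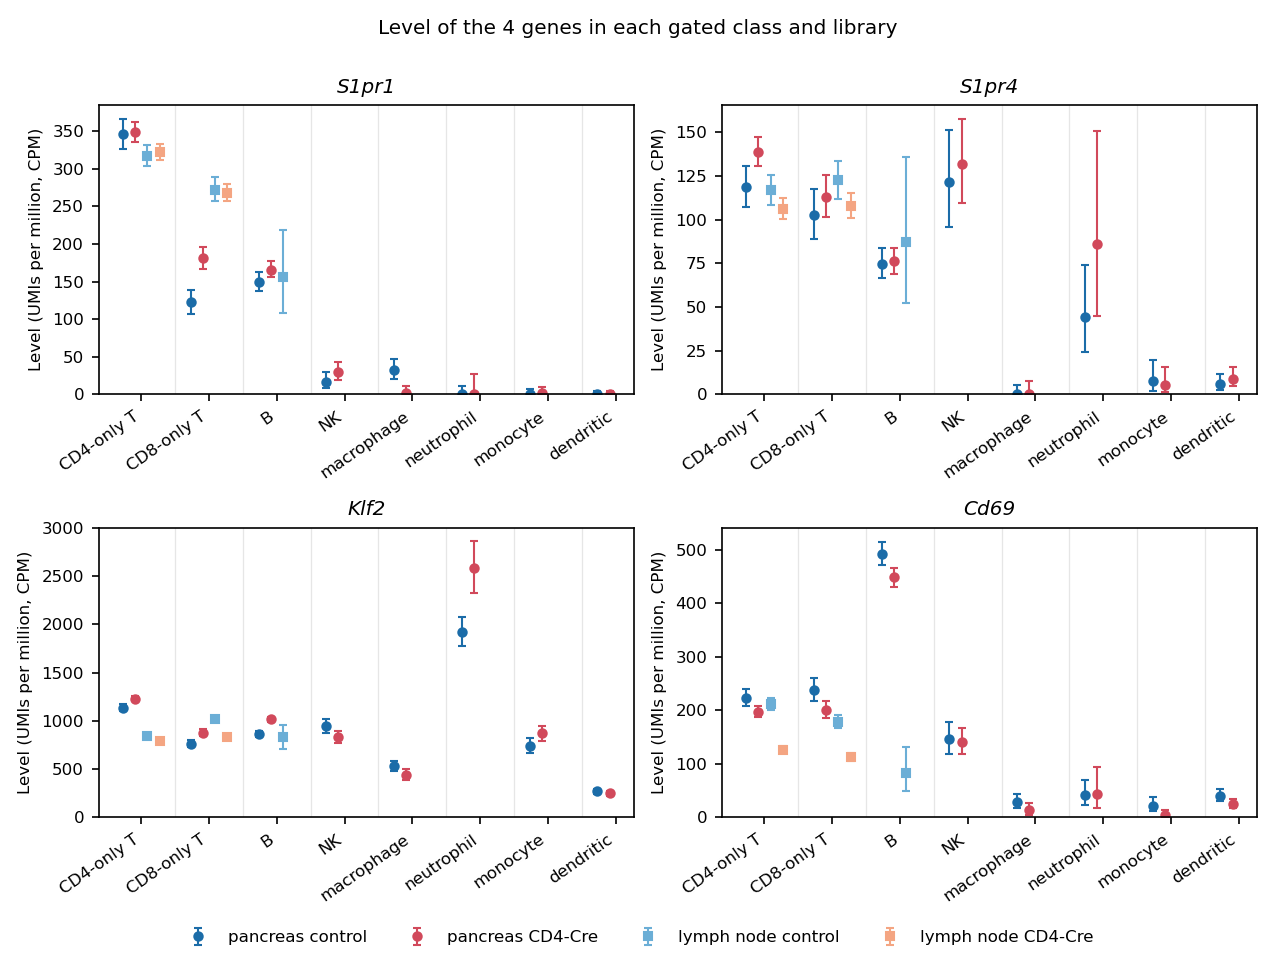
Level of S1pr1, S1pr4, Klf2 and Cd69 (y axis, CPM, starting at 0) in 8 gated classes (x axis), with 1 point per library and bars for the exact Poisson 95% interval. S1pr1 is found in T and B barcodes, Klf2 in all classes, and Cd69 is highest in pancreas B barcodes and lowest among T cells in the lymph node CD4-Cre library.

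Shares of barcodes with a UMI depend on depth, so each barcode was thinned to 2000 UMIs at random and shallower ones were left out. After thinning, an S1pr1 UMI was found in 49% of CD4-only barcodes of pancreas control, 51.1% of pancreas CD4-Cre, 46.1% of lymph node control and 47% of lymph node CD4-Cre. Among CD8-only barcodes it was found in 21.4%, 34%, 39.7% and 42% in the same order. As for the levels, the pancreas control library was lowest for CD8. Without thinning, the CD8 shares were 34.4%, 48.3%, 73.4% and 72.5%, from barcodes with medians of 3798, 3963, 5539.5 and 5428 UMIs. In conventional dendritic barcodes of the pancreas, S1pr1 was found after thinning in 0 of 92 and 0 of 106 barcodes (exact Clopper-Pearson upper limits of 3.93% and 3.42%). Their median depths were 14255 and 12966 UMIs before thinning. A Klf2 UMI was found in 76%, 77%, 71.7% and 68.6% of CD4-only and in 54.9%, 66.9%, 80.1% and 76.2% of CD8-only barcodes. Cd69 was detected in 26.1%, 23.9%, 24.2% and 16.5% of CD4-only and in 30%, 27.6%, 23.2% and 17.4% of CD8-only barcodes, and in 55.7% and 51.2% of pancreas B barcodes. An S1pr4 UMI was found in 19.5% to 22.9% of CD4-only, 17.6% to 22.8% of CD8-only and 14.6% to 16.2% of pancreas B barcodes.

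Within CD4 T cells, S1pr1 and Klf2 were lower together in Foxp3+ barcodes, the regulatory type, than in barcodes without Foxp3 and without S100a4, a gene of antigen-experienced cells. In pancreas control S1pr1 stood at 156 CPM in 63 Foxp3+ barcodes against 390 CPM in 720 others of that kind, a log2 ratio of -1.32 (-1.73 to -0.93). The same S1pr1 ratio was -0.98 (-1.25 to -0.71) in pancreas CD4-Cre and, in the lymph node, -0.52 (-0.80 to -0.26) in control against -0.94 (-1.16 to -0.71) in CD4-Cre. Klf2 ratios were -0.93, -0.78, -0.67 and -0.50 in the same order, and every interval lay below 0. S1pr1 was at least 1.5-fold lower with an interval below 0 in 3 of 4 libraries and Klf2 in 3 of 4. Among all genes with at least 20 UMIs, 3.85%, 4.12%, 4% and 3.35% were lower by that rule in the 4 libraries, and 16.8%, 16%, 11.2% and 12.8% were higher. S1pr4 had no common direction in Foxp3+ barcodes, with ratios of 0.36, -0.25, 0.23 and -0.63, of which the last passed the rule. Cd69 ratios were 0.28, 0.21, -1.10 and 0.37, so that the lymph node control library, with 93 Foxp3+ barcodes, stood apart, and its Cd69 passed the rule as lower. None of the 4 genes was higher by the rule in Foxp3+ barcodes.

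S100a4+ barcodes without Foxp3 were numerous in the pancreas only, with 94 in control and 143 in CD4-Cre. Barcodes with S100a4, whether or not they had Foxp3, were 14.4% and 9.59% of CD4-only barcodes there, against 0.87% and 0.76% in the lymph node libraries. Compared with barcodes without S100a4, S1pr1 was lower, with ratios of -0.68 and -0.92, while Cd69 was higher, with 0.66 and 0.59, in control and CD4-Cre respectively. S1pr4 was also higher, by 0.42 and 0.64, so the receptor genes S1pr1 and S1pr4 took opposite directions in these cells. Klf2 had ratios of -0.47 and -0.12, with both intervals below 0, and passed the 1.5-fold rule in neither library. In pancreas CD4-Cre the Klf2 interval (-0.22 to -0.02) did not meet that of S1pr1 (-1.17 to -0.68), so Klf2 fell far less than S1pr1 there. In pancreas control the intervals of these genes overlapped. By the 1.5-fold rule, S1pr1 was lower in both libraries, where 4.58% and 4.62% of all genes were. Cd69 was higher in both and S1pr4 in pancreas CD4-Cre, where 14.5% (control) and 13.5% (CD4-Cre) of all genes were.

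Among CD8 T cells of the pancreas, S1pr1 was lower in barcodes with at least 2 UMIs of Ccl5, a chemokine gene of effector and memory cells. In pancreas control it stood at 85.9 CPM in 301 such barcodes and at 211 CPM in 119 barcodes with 0 Ccl5 UMIs, a log2 ratio of -1.29 (-1.68 to -0.91). In pancreas CD4-Cre the levels were 116 CPM in 299 and 254 CPM in 339 barcodes, a ratio of -1.14 (-1.40 to -0.88). Klf2 was lower in the same barcodes, with ratios of -0.51 and -0.74, and Cd69 differed little, with -0.08 and 0.19. By the 1.5-fold rule S1pr1 was lower in both pancreas libraries and Klf2 in CD4-Cre, where 3.72% (control) and 5.14% (CD4-Cre) of all genes were lower and 14.2% and 13.8% higher. In the lymph node libraries, with 24 and 71 such barcodes, the S1pr1 ratios were -0.38 and -0.35, and in control the interval included 0. None of the 4 genes passed the rule there, where 1.85% (control) and 3.05% (CD4-Cre) of all genes were lower and 3.51% and 4.02% higher. The plot of levels by subset shows the 5 subsets.

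**Figure D2:**
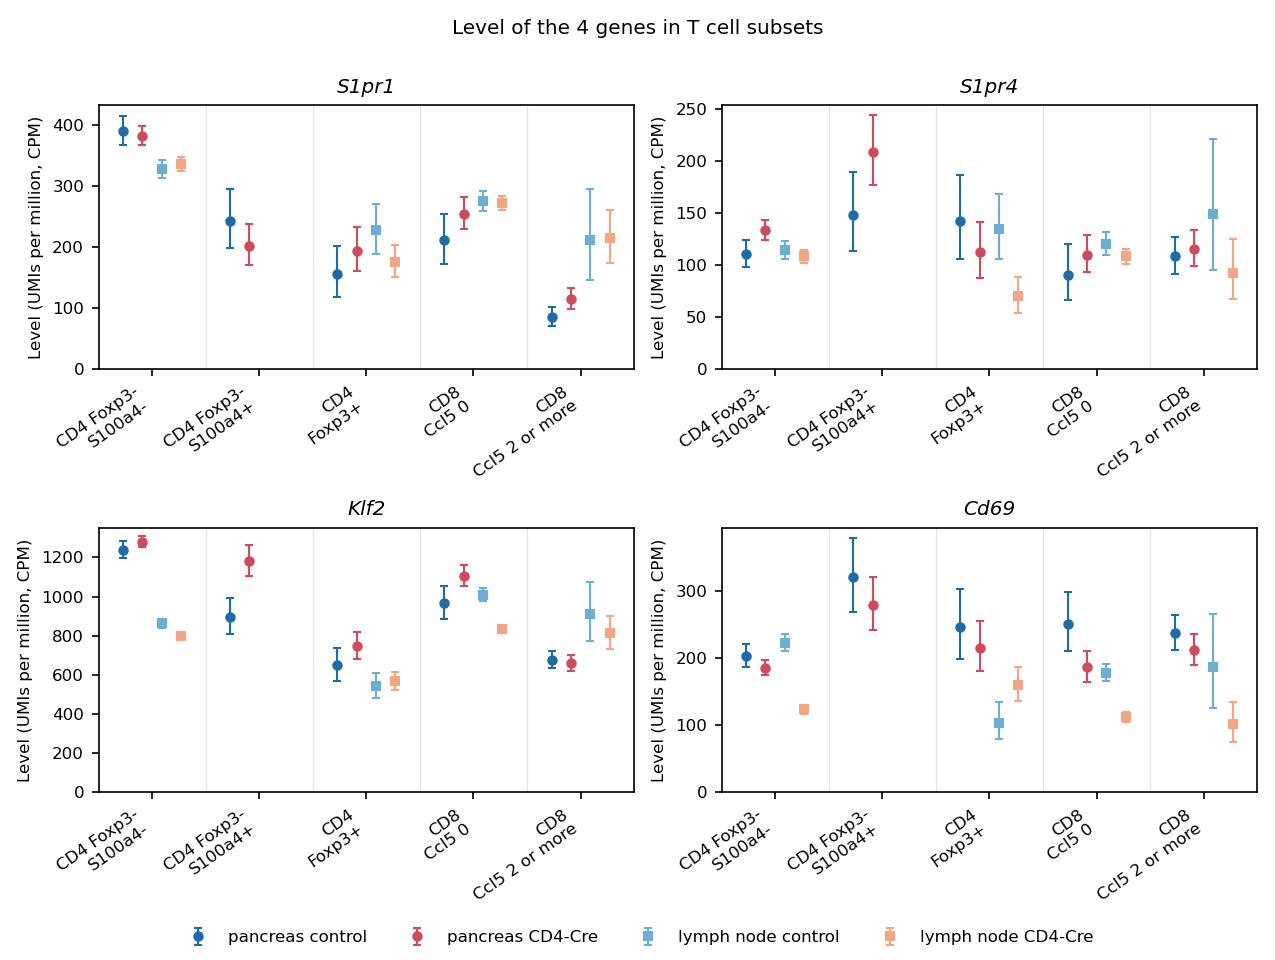
Level of the 4 genes (y axis, CPM, starting at 0) in CD4-only barcodes split by Foxp3 and S100a4 and in CD8-only barcodes split by Ccl5 (x axis), 1 point per library with exact Poisson 95% intervals. S1pr1 and Klf2 are lower in Foxp3+ barcodes, and S1pr1 is lower in pancreas barcodes with Ccl5.

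The study's main contrast is the loss of Ocab in T cells. Of the 4 genes, Cd69 in the lymph node was the one that passed the 1.5-fold rule between genotypes in a whole class. In lymph node CD4-only barcodes it stood at 212 CPM in control and 126 CPM in CD4-Cre, with a log2 ratio of -0.75 (-0.85 to -0.64), and in CD8-only barcodes at 178 and 111 CPM, a ratio of -0.68 (-0.82 to -0.54). Of all genes with at least 20 UMIs, 4.26% were lower and 0.812% higher by this rule in CD4-only lymph node barcodes, and 4.71% lower and 0.563% higher in CD8-only ones. A share of 3.99% (CD4-only) and 5.37% (CD8-only) of all genes had a lower ratio than Cd69. The medians of all genes were -0.08 and -0.11. Over 13 alternatives the Cd69 ratio ran from -0.85 to -0.65 in CD4-only barcodes, past 1.5-fold in each. In CD8-only barcodes it ran from -0.73 to -0.55, and it fell short of 1.5-fold with TMM scaling (-0.55) and with DESeq2 size factors (-0.56). With TMM the rule gave 297 lower and 132 higher genes in CD4-only lymph node barcodes in place of 441 and 84, and 264 and 112 in CD8-only ones in place of 460 and 55. The CD4 difference was that of barcodes without Foxp3 and S100a4, where Cd69 stood at 223 and 123 CPM and the ratio was -0.85 (-0.97 to -0.74). Foxp3+ barcodes went the other way, at 104 CPM in control and 159 CPM in CD4-Cre, a ratio of 0.62 (0.17 to 1.08), from 93 and 218 barcodes. CD8-only barcodes with 0 Ccl5 UMIs gave -0.68 (-0.82 to -0.53).

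Other early activation genes were lower in the same lymph node barcodes. Of the 11 measured on that list, 3 were at least 1.5-fold lower in CD4-only barcodes, namely Nr4a3, a nuclear receptor induced by T cell receptor signals, at -1.11, the AP-1 gene Fos at -1.13 and Tnfaip3, a brake on NF-kB, at -0.85. In CD8-only barcodes 3 of 11 were lower, Nr4a1 at -0.95, Nr4a3 at -2.09 and Tnfaip3 at -0.91, and none was higher in either class. The medians of the list were -0.36 and -0.28. Fewer of the listed barcodes passed the filters in lymph node CD4-Cre, 5645 of 6528, than in lymph node control, 2918 of 3059, and the part of barcode quality in the Cd69 difference was not tested beyond the filters tried. With 1 library each, genotype and preparation cannot be told apart.

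In the pancreas, Cd69 ratios were smaller and below 0 in each class, with -0.18 (-0.30 to -0.05) in CD4-only, -0.24 (-0.42 to -0.07) in CD8-only and -0.14 (-0.22 to -0.05) in B barcodes. B cells do not express Cre from the Cd4 promoter. Their Cd69 interval overlapped those of both T classes, which does not show that the ratios are equal, and the cause of these ratios was not tested. None of the 4 genes passed the 1.5-fold rule in the pancreas, where 2.13% of all genes were higher and 2.86% lower in CD4-only, 2.95% and 5.22% in CD8-only, and 3.64% and 2.07% in B barcodes. S1pr1 in CD8-only barcodes, described next, was past 1.5-fold under 5 of 13 alternatives. With TMM the rule gave 348 higher and 404 lower genes in pancreas CD8-only barcodes in place of 275 and 486.

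S1pr1 in pancreas CD8-only barcodes came closest. Its level of 122 CPM in control and 181 CPM in CD4-Cre gave a log2 ratio of 0.56 (0.34 to 0.79), a 1.48-fold difference, and 93.1% of all genes had a lower ratio. The ratio was past 1.5-fold with TMM scaling (0.613), DESeq2 size factors (0.614), totals without mitochondrial, ribosomal and receptor genes (0.617), the mean of barcode CPM (0.648) and doublet removal at 1.6% (0.6004). The makeup of this class differed between the libraries, since 70% of CD8-only barcodes in pancreas control and 45.6% in pancreas CD4-Cre had at least 2 Ccl5 UMIs. Within barcodes with 0 Ccl5 UMIs the S1pr1 ratio was 0.27 (-0.04 to 0.59), and within those with 2 or more it was 0.43 (0.09 to 0.77). Ccr7, a chemokine receptor gene of lymph node entry, was higher in the same class, by 0.95 (138 and 267 CPM), and Foxo1, a transcription factor gene upstream of Klf2, had a ratio of 0.47. Nr4a1 at -1.48, Fosb at -1.33, Nr4a3 at -1.03 and Tnfaip3 at -0.91 were lower, which is 4 of 12 genes of early activation. Itga1, a collagen-binding integrin of resident T cells, was at -1.34 and Prdm1, a repressor of the naive T cell programme, at -0.78. These were the 2 lower ones of 9 measured genes of tissue retention, and Rgs10 of that list was higher. In pancreas CD4-only barcodes, where the S1pr1 ratio was 0.01, Itga1, Prdm1 and Crtam were lower by the rule, 3 of 9. In CD8-only barcodes S1pr5, the S1P receptor of NK and effector cells, had 76 UMIs (38.3 CPM) in pancreas control and 13 UMIs (4.18 CPM) in pancreas CD4-Cre, a ratio of -3.19 (-4.17 to -2.33), against 211 and 182 CPM in NK barcodes. In CD4-only barcodes it had 17 and 18 UMIs, a ratio of -1.09 (-2.13 to -0.04). Of other cells' markers in pancreas CD8-only barcodes, the NK gene Ncr1 was at 44.3 and 43.1 CPM, the exocrine gene Prss2 at 15.1 and 463 CPM and the myeloid gene Lyz2 at 176 and 3.86 CPM. Cpa1, also exocrine, was at 6.54 and 224 CPM, and Tyrobp, of NK and myeloid cells, at 72.5 and 61.8 CPM, while the B cell gene Cd79a had 3 and 4 UMIs. The share of barcodes with Prss2 was 2.56% and 3.51%. The part of these cells in the ratios was not tested.

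In the other classes S1pr1 did not pass the rule. Its genotype ratio was 0.15 (-0.00 to 0.30) in pancreas B barcodes, 0.01 (-0.09 to 0.11) in pancreas CD4-only, 0.02 (-0.06 to 0.10) in lymph node CD4-only and -0.02 (-0.13 to 0.08) in lymph node CD8-only barcodes. The intervals of these T classes leave room for differences of at most 0.13 on the log2 scale from counting error alone. Klf2 ratios were small but had opposite signs in the 2 tissues. In the pancreas they were 0.12 (0.06 to 0.17) in CD4-only, 0.20 (0.11 to 0.30) in CD8-only and 0.24 (0.18 to 0.30) in B barcodes, and in the lymph node -0.09 (-0.14 to -0.04) in CD4-only and -0.28 (-0.34 to -0.23) in CD8-only barcodes. With TMM or DESeq2 scaling the lymph node CD4 value of Klf2 turned to 0.0023 and 0.0034, just above 0. S1pr4 followed the same pattern of signs, with 0.23 (0.06 to 0.40) and 0.14 (-0.12 to 0.39) in pancreas CD4-only and CD8-only barcodes and -0.14 (-0.27 to -0.00) and -0.18 (-0.34 to -0.02) in the lymph node. The median of all genes was also below 0 in the lymph node, at -0.08 in CD4-only and -0.11 in CD8-only barcodes. In CD4-only ones 48.2% of all genes had a lower ratio than Klf2, and 40% a lower one than S1pr4. In CD8-only ones these shares were 26.3% and 38.8%. With DESeq2 size factors the lymph node CD4 value of S1pr4 was -0.042. In Foxp3+ barcodes of the lymph node S1pr4 stood at 134 CPM in control and 70 CPM in CD4-Cre, a ratio of -0.94 (-1.44 to -0.45). Foxo1 ratios in the lymph node were -0.41 in CD4-only and -0.48 in CD8-only barcodes, -0.08 in pancreas CD4-only and 0.32 in pancreas B barcodes, and Ccr7 ratios in these 4 sets were 0.01, -0.07, 0.21 and -0.05. The plot of genotype ratios sets the 20 values side by side.

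**Figure D3:**
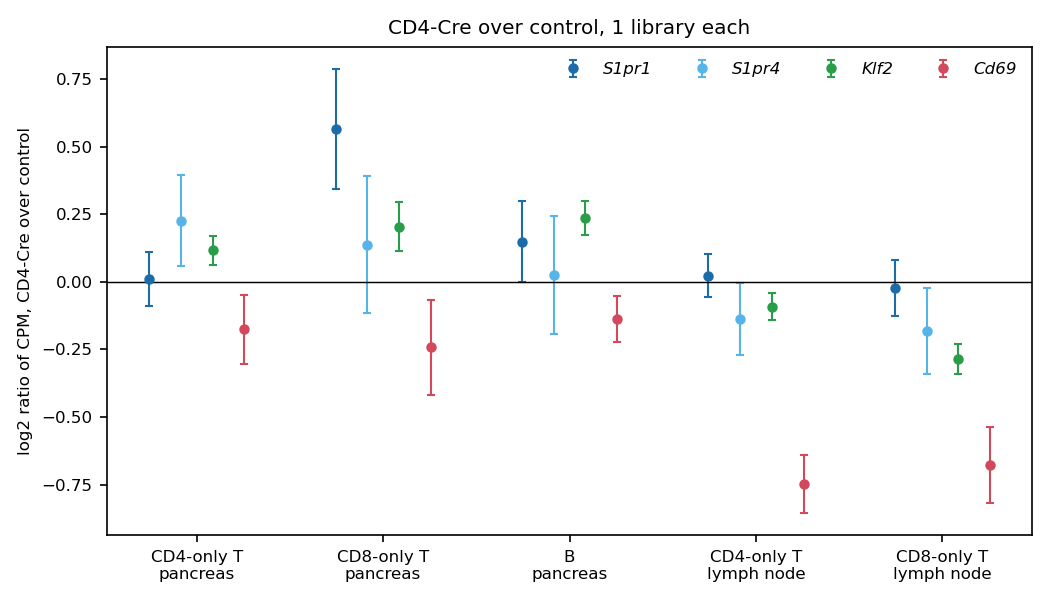
Log2 ratio of CPM, CD4-Cre over control (y axis), for the 4 genes in 5 classes (x axis), 1 library each, with exact 95% counting intervals. The lowest values are those of Cd69 in lymph node T barcodes, -0.75 and -0.68, and the highest is that of S1pr1 in pancreas CD8-only barcodes, 0.56.

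Few other genes of the S1P pathway passed the 1.5-fold rule between genotypes. S1pr2 was at most at 7.85 CPM in T and B barcodes, and S1pr3 was detected beyond 1 UMI in B barcodes alone, with 24 and 46 UMIs. Of the 10 genes of S1P metabolism and transport, 3 to 7 reached 20 UMIs in a comparison. None passed the 1.5-fold rule in the pancreas. In the lymph node Sgpp1, an S1P phosphatase, was lower in CD4-Cre at -0.66 in CD4-only and -0.78 in CD8-only barcodes, and Sgpl1, the S1P lyase, at -0.61 in CD8-only barcodes. Of 9 measured genes of receptor signalling, Grk2, the kinase that desensitizes S1pr1, was lower in pancreas CD4-Cre at -0.61 in CD4-only and -0.60 in CD8-only barcodes, and no gene of this list passed in the lymph node or in B barcodes. Of 11 genes of lymph node entry and homing, Cxcr5 was lower in lymph node CD4-only barcodes at -0.74 and Cxcr4, a chemokine receptor of retention in bone marrow and follicles, in pancreas B barcodes at -0.88.

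Setting pancreas beside lymph node describes the 4 genes in both places, but tissue, age, cell selection and mice differ together in these libraries and cannot be told apart. S1pr1 in CD8-only barcodes was lower in the pancreas, with 122 against 272 CPM in control, a log2 ratio of -1.15 (-1.36 to -0.95), and 181 against 268 CPM in CD4-Cre, a ratio of -0.57 (-0.70 to -0.43). In CD4-only barcodes the S1pr1 ratio was 0.12 in control and 0.11 in CD4-Cre. Among CD8-only barcodes with 0 Ccl5 UMIs the S1pr1 ratio was closer to 0, at -0.38 in control and -0.10 in CD4-Cre, and among CD4-only barcodes without Foxp3 and S100a4 it was farther from 0, at 0.25 and 0.19, while Ccl5 barcodes made up 3.32% and 4.71% of the class in the lymph node libraries. By the 1.5-fold rule S1pr1 was lower in control CD8-only barcodes, where 7.81% of all genes were, and no other of the 4 genes was lower in any of the 4 comparisons (8.25% of all genes in control CD4-only, 4.17% in CD4-Cre CD4-only and 3.64% in CD4-Cre CD8-only barcodes).

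Klf2 in CD4-only barcodes was higher in the pancreas, with log2 ratios of 0.44 in control and 0.65 (0.60 to 0.69) in CD4-Cre. In CD8-only barcodes Klf2 ratios were -0.41 in control and 0.07 in CD4-Cre, and the second of these changed sign with the scaling, to -0.17 with TMM and -0.18 with DESeq2 factors. In barcodes with 0 Ccl5 UMIs they were -0.06 and 0.40. Cd69 ratios were 0.07 and 0.64 in CD4-only and 0.41 and 0.85 in CD8-only barcodes, in control and CD4-Cre, and the larger CD4-Cre values carry the low lymph node CD4-Cre level described above. By the 1.5-fold rule Klf2 and Cd69 were higher in CD4-only and Cd69 in CD8-only barcodes of CD4-Cre, where 15% and 20.6% of all genes were higher. Both CD4-only calls fell short of 1.5-fold with TMM (0.54 for each gene), with DESeq2 factors (0.54 for each) and with totals without mitochondrial, ribosomal and receptor genes (0.58 for each). S1pr1 in CD8-only barcodes of CD4-Cre went past 1.5-fold lower under the same 3 scalings, at -0.81, -0.82 and -0.75, and also without doublet removal (-0.60) and with 2 UMIs required of the receptor (-0.61). With TMM the rule gave 1282 higher and 906 lower genes in CD4-Cre CD8-only barcodes in place of 2048 and 362, and 1250 and 696 in CD4-Cre CD4-only ones in place of 1591 and 442. In control CD8-only barcodes it gave 1330 and 1147 in place of 1749 and 733. In control no member was higher by that rule, where 11.8% and 18.6% of all genes were higher. S1pr4 ratios were 0.02 and 0.39 in CD4-only and -0.25 and 0.06 in CD8-only barcodes.

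Most genes of the tissue retention list, which hold T cells in tissues, were higher in the pancreas. Of that list 8 of 9 measured genes were at least 1.5-fold higher in control CD4-only barcodes, 6 of 9 in control CD8-only, 6 of 8 in CD4-Cre CD4-only and 7 of 9 in CD4-Cre CD8-only barcodes. Among them in all 4 were the chemokine receptor gene Cxcr6, the signalling regulators Rgs1 and Rgs2, Prdm1 and the adhesion gene Cd44. Cxcr6 had ratios of 3.28 in CD4-only and 2.23 in CD8-only control barcodes and Rgs1 of 1.97 and 4.33. Rgs10, of the same list, was lower in all 4. Of the 11 genes of lymph node entry and homing, 4 were higher and 2 lower in control CD4-only barcodes, and 6 and 3 in control CD8-only ones. The counts were 4 and 1 in CD4-Cre CD4-only and 7 and 2 in CD4-Cre CD8-only barcodes. Itga4, Itgb1 and Cxcr4 were higher in all 4 comparisons. Ccr7, among the lower genes of that list, had ratios of -2.05 in control and -1.03 in CD4-Cre in CD8-only barcodes. In CD4-only ones the Ccr7 ratios were -0.79 and -0.59. Foxo1 had ratios of -0.66 in control and 0.28 in CD4-Cre in CD8-only barcodes, of which the first passed the rule, and of -0.05 and 0.28 in CD4-only ones. S1pr5 had 76 UMIs in control CD8-only barcodes of the pancreas and none in the lymph node, at least 53.4-fold higher against a floor of 3 counts. Klf6 and Klf13, of the same factor family as Klf2, were higher in the pancreas in all 4 comparisons, with Klf6 ratios of 1.89 in CD4-only and 2.02 in CD8-only control barcodes. Of the 12 early activation genes, 6 were higher and 4 lower in control CD4-only barcodes, 7 and 1 in control CD8-only, 7 and 1 in CD4-Cre CD4-only and 8 and 1 in CD4-Cre CD8-only barcodes. Fos, Fosb, Junb, Ier2 and Tnfaip3 were higher in all 4 comparisons and Myc lower, and the lower genes of control CD4-only barcodes were Egr1, Egr2, Dusp2 and Myc.

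S1pr1 and Klf2 were found together in single T barcodes more often than independent detection would give. After thinning, 349 of 824 CD4-only barcodes in pancreas control had both, or 42.4%, where independent detection would give 37.2%. The odds ratio of joint detection was 3.26 (2.30 to 4.61) there, 2.62 (2.09 to 3.29) in pancreas CD4-Cre and, in the lymph node, 2.51 (1.93 to 3.27) in control against 2.25 (1.89 to 2.68) in CD4-Cre. Every interval lay above 1. In CD8-only barcodes the odds ratio was 4.23 (2.39 to 7.47), 5.49 (3.495 to 8.61), 1.80 (1.21 to 2.68) and 1.48 (1.16 to 1.90) in the same order, so that the pancreas libraries were the high ones. Those high CD8 values fell to 1.30 and 3.02 among pancreas barcodes with 0 Ccl5 UMIs, and the CD4 values among barcodes without Foxp3 and S100a4 were 2.45, 2.19, 2.28 and 2.01. B barcodes gave 1.61 (1.14 to 2.27) and 1.59 (1.19 to 2.13). Depth was equal for all barcodes in these counts. Without thinning the T odds ratios ran from 3.83 to 13.6, and with thinning to 1000 UMIs the CD4 values ran from 1.54 to 2.16. The CD8 values at 1000 UMIs were 1.78, 1.83, 1.32 and 1.38, so that the pancreas CD8 values were then within the CD4 range. With another random draw the pancreas control CD8 value was 7.85.

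In CD4-only barcodes the S1pr1 level rose with the number of Klf2 UMIs in the barcode. In CD4-only barcodes of pancreas control it was 192 CPM at 0 Klf2 UMIs, 347 at 1, 391 at 2 and 482 at 3 or more. In pancreas CD4-Cre it was 218, 376, 429 and 499 CPM, in lymph node control 214, 358, 377 and 454 CPM, and in lymph node CD4-Cre 234, 343, 366 and 468 CPM. All 4 libraries thus showed a step at the first Klf2 UMI and a further climb above it. In CD8-only barcodes the S1pr1 level at 0 and at 3 or more Klf2 UMIs was 61.5 and 210 CPM in pancreas control, 85 and 300.5 CPM in pancreas CD4-Cre and, in the lymph node, 187 and 346 CPM in control against 234 and 323 CPM in CD4-Cre. At 1 and 2 Klf2 UMIs the CD8 levels were 172 and 208 CPM in pancreas control and 257 and 288 in pancreas CD4-Cre. Lymph node control had 280 and 247 CPM, so its level did not rise at each step, and lymph node CD4-Cre had 281 and 300. The plot of levels by Klf2 count shows these levels.

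**Figure D4:**
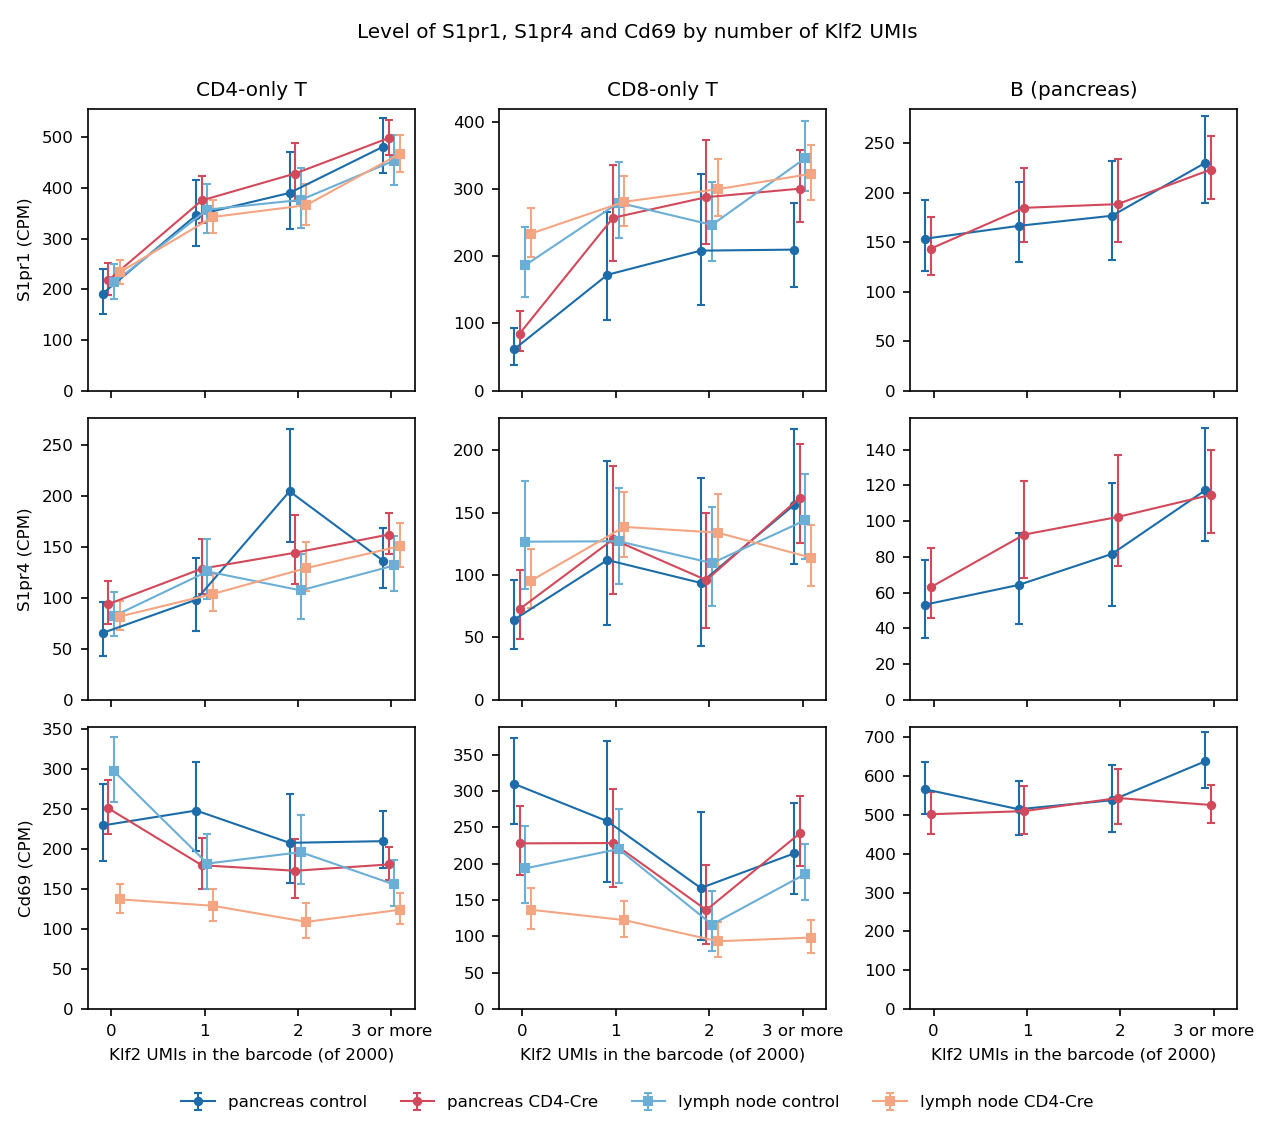
Level of S1pr1, S1pr4 and Cd69 (y axes, CPM of thinned UMIs, starting at 0) in barcodes with 0, 1, 2 or 3 and more Klf2 UMIs of 2000 (x axis), by class and library, with exact Poisson 95% intervals. S1pr1 climbs with Klf2 in CD4-only barcodes of all 4 libraries, from 192 to 482 CPM in pancreas control, and Cd69 does not.

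Placed among all genes, S1pr1 stood near the top of this contrast. Its log2 ratio between CD4-only barcodes with and without a Klf2 UMI was 1.15 (0.80 to 1.52) in pancreas control, 1.06 (0.84 to 1.29) in pancreas CD4-Cre and, in the lymph node, 0.91 (0.66 to 1.18) in control against 0.76 (0.59 to 0.93) in CD4-Cre. Between 98.8% and 99.2% of genes with at least 50 thinned UMIs had a lower ratio in these libraries. By the median over the 4 libraries S1pr1 ranked 6 of 3810 genes in CD4-only and 2 of 1989 in CD8-only barcodes, where the CD8 ratios were 1.70, 1.75, 0.69 and 0.36. S1pr4 ranked 26 in CD4-only and 18 in CD8-only barcodes, with CD4 ratios of 1.11, 0.68, 0.59 and 0.65. Cd69 lay in the lower part, at 3416 of 3810 and 1599 of 1989, and its CD4 ratio was lowest in lymph node control, at -0.77 (-1.02 to -0.51). By the 1.5-fold rule S1pr1 and S1pr4 were higher in CD4-only barcodes of all 4 libraries, where 2.45%, 2.5%, 2.53% and 1.67% of all genes were. In CD8-only barcodes S1pr1 was higher in 3 of 4 libraries and S1pr4 in both pancreas libraries, where 3.27%, 4.02%, 2.05% and 1.21% of all genes were. In B barcodes S1pr4 was higher in both pancreas libraries, at 0.76 and 0.74, where 3.21% and 3.56% of all genes were, and S1pr1 ratios were 0.34 and 0.51. Cd69 was lower by this rule in CD4-only barcodes of lymph node control, where 5.03% of all genes were, and in no other set.

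The genes above and below S1pr1 in this contrast were listed after its place had been seen, and describe the barcodes with Klf2. The highest CD4 medians were those of Bcl9l at 1.17, Cdc25b, a cell cycle phosphatase, at 1.14, Tdrp at 1.01, Gm20186 at 1.002 and Rasa3, a Ras and Rap inhibitor, at 0.99, beside 0.99 for S1pr1. The lowest were Lag3 at -3.06, Pdcd1 at -2.65, Cd200 at -2.25, Tnfrsf4 at -2.10 and Nr4a1 at -2.10, of which Lag3 and Pdcd1 are inhibitory receptors of activated T cells. In CD8-only barcodes the highest were Klf3 at 1.33, S1pr1 at 1.19, Sidt1 at 1.08, the interleukin-7 receptor gene Il7r at 1.07 and Lef1, a factor of naive T cells, at 1.01. The lowest CD8 medians were those of the retention genes Itgae at -1.21 and Cxcr6 at -1.15, and of Grina at -1.12, Mxd4 at -1.03 and Lpxn at -1.02.

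Other pairs of the 4 genes were tied more loosely. S1pr4 and Klf2 gave odds ratios of 2.52, 1.63, 1.58 and 1.62 in CD4-only barcodes, in the order of libraries used above, each with an interval above 1, and 2.15, 1.88, 0.96 and 1.41 in CD8-only barcodes. S1pr1 and S1pr4 gave 1.78, 1.29, 1.35 and 1.37 in CD4-only barcodes, also with intervals above 1, and 1.04 to 1.93 in CD8-only barcodes. S1pr1 and Cd69 gave 0.75 to 0.89 in CD4-only and 0.73 to 1.004 in CD8-only barcodes, and 1 of these 8 intervals, that of lymph node CD4-Cre CD8-only barcodes (0.571 to 0.995), lay below 1. Klf2 and Cd69 gave 0.64 to 0.99 in T barcodes. S1pr4 and Cd69 gave 0.81 to 1.38 in T barcodes, highest in CD8-only barcodes of pancreas control, and each of the 8 intervals included 1. All 4 genes were detected together in 1.09% to 2.61% of thinned barcodes. The plot of odds ratios shows each pair.

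**Figure D5:**
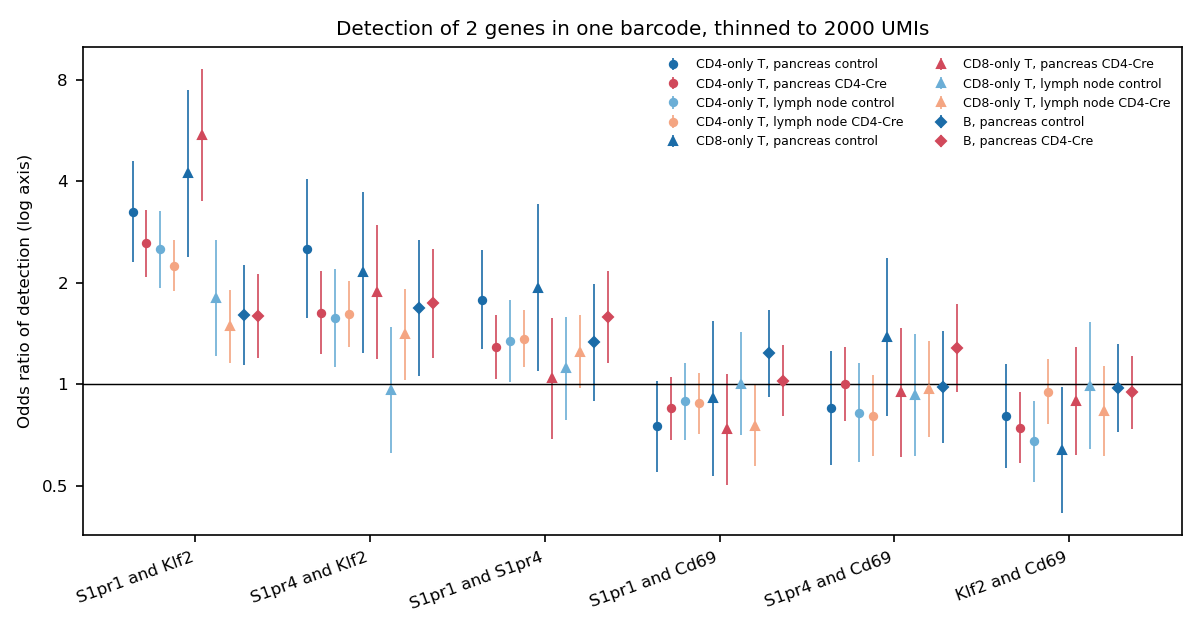
Odds ratio of detection in one barcode (y axis, log scale, line at 1) for the 6 pairs of the 4 genes (x axis), by class and library after thinning to 2000 UMIs, with 95% Woolf intervals. S1pr1 with Klf2 lies above 1 in all 10 sets and reaches 5.49 in pancreas CD4-Cre CD8-only barcodes, while S1pr1 with Cd69 lies between 0.73 and 1.24.

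Barcodes with Cd69 RNA had S1pr1 levels close to those of barcodes without it. In CD4-only barcodes with a Cd69 UMI S1pr1 stood at 305 CPM in pancreas control, 377 in pancreas CD4-Cre and, in the lymph node, 329 in control against 311 in CD4-Cre. Without a Cd69 UMI it stood at 393, 409, 356 and 352 CPM in the same order. The levels with Cd69 were the lower ones in all 4 libraries, and the log2 ratios were -0.37 (-0.66 to -0.09), -0.12, -0.11 and -0.18, of which only the first had an interval that excluded 0. That first value was -0.04 with another random draw of the thinning. In CD8-only barcodes the S1pr1 ratios were -0.31, -0.24, -0.02 and -0.35 (-0.64 to -0.07), of which the last was 0.014 with another random draw and -0.046 without doublet removal, and in B barcodes 0.23 and -0.02. Other alternatives moved S1pr1 ratios away from 0. Thinned to 1000 UMIs, the CD8 ratio was -0.94 in pancreas control and 0.23 in lymph node control. Without thinning, pancreas CD4-Cre gave -0.63 in CD8-only and -0.39 in CD4-only barcodes. With another random draw the CD4 ratio of lymph node CD4-Cre was -0.35. Klf2 ratios in CD4-only barcodes ran from -0.15 to -0.00, and S1pr4 ratios from -0.28 to -0.07. By the median over the 4 libraries, S1pr1 ranked 446 of 3810 genes from the lowest in CD4-only and 77 of 1989 in CD8-only barcodes. S1pr4 ranked 146 and 802 in these classes, and Klf2 837 and 539. The ranks were not taken with another random draw. None of S1pr1, S1pr4 and Klf2 passed the 1.5-fold rule in any class or library. In CD4-only barcodes of the 4 libraries 1.21%, 1.23%, 1.23% and 1.53% of all genes were lower and 2.83%, 2.93%, 3.19% and 2.39% higher, in CD8-only barcodes 2.36%, 1.57%, 1.56% and 1.13% lower and 1.5%, 1.96%, 1.82% and 1.88% higher, and in pancreas B barcodes 2.02% and 2.08% lower and 2.66% and 2.41% higher. Among CD4-only barcodes of pancreas control that had a Klf2 UMI, S1pr1 was detected in 51% of those with and 57.4% of those without Cd69. Among those without a Klf2 UMI, S1pr1 was detected in 24.1% of those with and 29.3% of those without Cd69. In CD4-only barcodes of the other 3 libraries the S1pr1 share was also higher with Klf2 than without it, both with and without Cd69. In CD8-only barcodes of lymph node CD4-Cre it was 36.2% with and 36.8% without Klf2 among those with Cd69, and 45.8% and 34.3% among those without Cd69.

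The genes with the highest and lowest ratios by Cd69 are given next. The highest CD4 medians over the 4 libraries were Nr4a1 at 2.70 (range 2.02 to 3.56), the early growth response gene Egr1 at 2.53, Tagap at 1.12, Cd200 at 1.10 and Rilpl2 at 1.003, of 3810 genes. The lowest were Exoc4 at -0.74, the phosphodiesterase gene Pde4d at -0.66, Mink1 at -0.65, Lars at -0.60 and Ctdsp2 at -0.59. In CD8-only barcodes the highest were Egr1 at 1.92, Tagap at 0.93, the phosphatase gene Dusp2 at 0.71, Rilpl2 at 0.68 and the NF-kB inhibitor gene Nfkbia at 0.58, and the lowest Letm1 at -0.65, Ccl5 at -0.62, Nabp2 at -0.62, Rsf1 at -0.60 and Rnf114 at -0.59, of 1989 genes. Of the early activation list, all measured genes lay above 0 in CD4-only barcodes, 9 of 9 in pancreas control, 12 of 12 in pancreas CD4-Cre and, in the lymph node, 7 of 7 in control against 9 of 9 in CD4-Cre. In CD8-only barcodes 4 of 7 and 5 of 7 did in the pancreas, and 5 of 5 in each lymph node library. In B barcodes of each pancreas library 9 of 9 did. The share of all genes above 0 was not counted. Medians of all genes were 0.03, 0.04, 0.01 and 0.02 in CD4-only barcodes, beside list medians of 0.75, 0.64, 0.89 and 0.97. For CD8-only barcodes they were -0.01, 0.03, -0.0002 and 0.01, beside 0.10, 0.35, 0.87 and 0.72. Pancreas B barcodes had 0.02 in each library, beside 0.47 and 0.53.

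Across the 20 sets of class and library with at least 50 barcodes, the genes whose levels were most like those of S1pr1 were Slc17a9 (Pearson r = 0.979), Slamf6 (0.956), Fam169b (0.954), Dtx1 (0.951) and Inpp4b (0.949), on log2(CPM + 10) among 10046 genes. S1pr4 was most like Satb1 (0.973), Stk26 (0.969), Psip1 (0.967), Arhgap45 (0.965) and Tbc1d10c (0.963). Klf2 had Pag1 (0.931), Mier1 (0.897), Slc28a2 (0.893), Rasa3 (0.893) and Msl2 (0.89) nearest to it, and Cd69 had Gm28053 (0.938), Lpar2 (0.934), Ppp1r16b (0.927), Mga (0.926) and Atg16l2 (0.916). Between the members r was 0.218 for S1pr1 and Klf2 across these sets, which include the neutrophils, high in Klf2 and without an S1pr1 UMI. It was 0.809 for S1pr1 and Cd69 and 0.825 for S1pr4 and Cd69. The sets also include the myeloid classes of the pancreas, with at most 31.6 CPM of S1pr1 and 43.1 CPM of Cd69. Within T barcodes S1pr1 and Cd69 gave odds ratios of 0.73 to 1.004. The sets share 4 libraries, so the correlations describe the sets and carry no test.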

How the data were processed

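Transcript 5′ ends of single cells were sequenced from droplets in 4 mouse libraries, 1 per group. The deposited values are counts of UMIs per gene and barcode, without normalization, written by software version 3.0.0 per the file headers. Per the submitters' processing notes, Cell Ranger (version not given) and the build mm10 were used.

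Barcodes with at least 500 genes and at most 10% mitochondrial UMIs were kept. A Scrublet-like score set each barcode against 2 simulated doublets per barcode, and the top 0.8% per 1000 listed barcodes, 75 to 388 per library, were removed as likely doublets. Classes were gated on marker UMIs, with none of the 4 genes used: T and B gates of at least 2 UMIs, NK with an Ncr1 UMI and no Cd3 UMI, macrophages with at least 3 UMIs of C1qa, C1qb and C1qc, neutrophils with at least 10 of S100a8 and S100a9, monocytes with at least 2 of Ace and Ear2, and dendritic barcodes with at least 2 of Flt3, Clec9a, Xcr1 and Cd209a. Barcodes that met several gates, 3 to 236 per library, were left out.

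CPM have exact Poisson 95% intervals and log2 ratios have exact conditional binomial ones, which were checked on simulated counts. A gene passed the 1.5-fold rule when its ratio was at least 1.5-fold and its interval excluded 0, among genes with at least 20 UMIs (50 thinned UMIs for splits by Cd69 or Klf2). For odds ratios 0.5 was added to each count, with Woolf intervals. The 8 gene lists hold 76 genes, of which 75 were in the features. Beside the 4 genes, the text names S1pr5, Ccr7 and Foxo1, listed genes that passed the rule (in part, and some are not reported here), the 5 genes most like each of the 4 (at least 200 UMIs), and the 5 highest and 5 lowest genes of the Cd69 split. The split of all genes by Klf2 was added after the data had been seen. The 4 genes and the lists were chosen with earlier results of these data known. No test was made, since each group is 1 library. Tools were Python 3.11.15, numpy 2.4.6, scipy 1.17.1, scikit-learn 1.9.0, pandas 2.3.3, matplotlib 3.10.9 and R 4.3.3, with edgeR 4.0.16 (TMM) and DESeq2 1.42.0 (size factors) for scaling alternatives alone.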

Additional observations from a re-analysis of the deposited data

Results flagged for a closer look

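In 5 cases the genotype ratio (CD4-Cre over control, log2) had opposite signs in 2 tissues or 2 subsets, with both counting intervals excluding 0. In CD4-only barcodes S1pr4 was at 0.23 in the pancreas and -0.14 in the lymph node, and Klf2 at 0.12 and -0.092. In CD8-only barcodes Klf2 was at 0.20 in the pancreas and -0.28 in the lymph node, and among those with 0 Ccl5 UMIs at 0.20 and -0.27. In lymph node CD4-only barcodes Cd69 was at 0.62 with Foxp3 and at -0.85 without Foxp3 and S100a4. With 1 library per group the difference was not tested in any of these, and the lymph node CD4 value of Klf2 did not keep its sign under other scalings. The median genotype ratio of all genes was itself -0.08 in lymph node CD4-only and -0.11 in lymph node CD8-only barcodes.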

How the results depend on the processing

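Each group is 1 pooled library, so the spread between mice is unknown and genotype cannot be told apart from preparation. Counting error and depth limit the rarer values: S1pr4 and the Foxp3+ barcodes rest on few UMIs. No paired analysis was possible because each group has 1 library, and for the same reason no library could be left out. Of the genotype ratios of the 4 genes, 234 of 248 values under an alternative stayed within the counting interval of the reported value, as did 173 of 208 tissue ratios, 149 of 174 ratios by Cd69, 250 of 288 odds ratios and 49 of 96 shares of barcodes. Of the counts of all genes past the rule, 34 of 72 stayed within 1.5 times the reported count and 38 did not. With a minimum of 100 UMIs or a fold of 2 every count that left this range was smaller, as with 107 and 108 genes higher in pancreas CD4-only barcodes in place of 216, and the counts that TMM moved stand beside their results. Of the counts of listed genes, 54 of 72 stayed within that range. The others follow, on the log2 scale for ratios, in percent for shares and as numbers of genes past the fold for listed genes (ratios of genotype unless between tissues). Where the alternative removes subsets or changes depth its own construction moves the value, and elsewhere the cause was not tested. TMM moved the median of all genes by over 0.1 in lymph node CD8-only genotype ratios (0.12) and in 3 tissue ratios (-0.25 and -0.16 in CD8-only CD4-Cre and control, -0.11 in CD4-only CD4-Cre).

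In the subsets without Foxp3 and S100a4 or with 0 Ccl5 UMIs, Klf2 genotype ratio was 0.048 in CD4 pancreas, S1pr1 genotype ratio 0.27 in CD8 pancreas and Cd69 genotype ratio -0.43 in CD8 pancreas. S1pr1 tissue ratios were 0.25 in control CD4, -0.38 in control CD8, 0.19 in CD4-Cre CD4 and -0.098 in CD4-Cre CD8. Klf2 tissue ratios were 0.52 in control CD4, -0.063 in control CD8 and 0.40 in CD4-Cre CD8. Cd69 tissue ratio was -0.13 in control CD4. The shares with S1pr1 were 53.05% in pancreas control CD4, 32.1% in pancreas control CD8, 54.5% in pancreas CD4-Cre CD4 and 41.9% in pancreas CD4-Cre CD8. Odds ratios of S1pr1 and Klf2 were 1.3 in pancreas control CD8 and 3.02 in pancreas CD4-Cre CD8 and Klf2 ratio by Cd69 -0.14 in pancreas CD4-Cre CD8. Odds ratio of Klf2 and Cd69 was 0.546 in pancreas CD4-Cre CD8. At a minimum of 100 UMIs, higher listed genes were 0 in CD4 pancreas and lower listed genes 4 in CD4 pancreas and 7 in CD8 pancreas. At a fold of 2, lower listed genes were 3 in CD4 pancreas, 6 in CD8 pancreas, 0 in B pancreas, 2 in CD4 lymph node, 2 in CD8 lymph node, 4 in CD4 control between tissues, 5 in CD8 control between tissues, 5 in CD4 CD4-Cre between tissues and 7 in CD8 CD4-Cre between tissues. Higher listed genes were 0 in CD8 pancreas, 1 in B pancreas, 1 in CD4 lymph node and 0 in CD8 lymph node. With TMM scaling, higher listed genes were 5 in CD8 pancreas and 3 in CD8 lymph node. S1pr1 genotype ratios were 0.12 in CD4 lymph node and 0.10 in CD8 lymph node. Klf2 genotype ratios were 0.0023 in CD4 lymph node and -0.16 in CD8 lymph node. Klf2 tissue ratios were -0.58 in control CD8, 0.54 in CD4-Cre CD4 and -0.17 in CD4-Cre CD8. S1pr1 tissue ratios were 0.0054 in CD4-Cre CD4 and -0.81 in CD4-Cre CD8. Cd69 tissue ratios were 0.54 in CD4-Cre CD4 and 0.60 in CD4-Cre CD8 and S1pr4 tissue ratio -0.18 in CD4-Cre CD8. With doublet removal at 1.6%, Klf2 genotype ratio was 0.32 in B pancreas. With DESeq2 size factors, S1pr1 genotype ratios were 0.12 in CD4 lymph node and 0.099 in CD8 lymph node. Klf2 genotype ratios were 0.0034 in CD4 lymph node and -0.16 in CD8 lymph node. Klf2 tissue ratios were -0.56 in control CD8, 0.54 in CD4-Cre CD4 and -0.18 in CD4-Cre CD8. S1pr1 tissue ratios were 0.0091 in CD4-Cre CD4 and -0.82 in CD4-Cre CD8 and S1pr4 tissue ratio -0.19 in CD4-Cre CD8. Cd69 tissue ratio was 0.60 in CD4-Cre CD8. With totals that leave out mitochondrial, ribosomal and receptor genes, Klf2 genotype ratios were -0.041 in CD4 lymph node and -0.22 in CD8 lymph node. Klf2 tissue ratios were -0.58 in control CD8, 0.58 in CD4-Cre CD4 and -0.11 in CD4-Cre CD8. S1pr1 tissue ratio was -0.75 in CD4-Cre CD8 and Cd69 tissue ratio 0.67 in CD4-Cre CD8. With the mean CPM over barcodes, Klf2 tissue ratios were -0.29 in control CD8, 0.73 in CD4-Cre CD4 and 0.20 in CD4-Cre CD8. S1pr1 tissue ratios were 0.19 in CD4-Cre CD4 and -0.43 in CD4-Cre CD8. With 2 UMIs required of Cd4 or Cd8, Klf2 tissue ratio was 0.59 in CD4-Cre CD4 and Cd69 tissue ratio 0.78 in CD4-Cre CD4. With another random draw, S1pr1 ratios by Cd69 were -0.042 in pancreas control CD4 and 0.014 in lymph node CD4-Cre CD8 and odds ratio of S1pr1 and Klf2 7.85 in pancreas control CD8. Odds ratio of S1pr4 and Cd69 was 0.777 in pancreas CD4-Cre CD4 and odds ratios of S1pr1 and S1pr4 1.61 in pancreas CD4-Cre CD8 and 1.69 in lymph node control CD8. The shares with S1pr1 were 30.02% in pancreas CD4-Cre CD8 and 43.9% in lymph node control CD8. Klf2 ratios by Cd69 were 0.00042 in lymph node control CD4, -0.065 in lymph node control CD8 and -0.025 in lymph node CD4-Cre CD8. Odds ratio of Klf2 and Cd69 was 0.92 in lymph node control CD4 and odds ratio of S1pr4 and Klf2 1.55 in lymph node control CD8. Without doublet removal, S1pr4 ratio by Cd69 was 0.27 in pancreas control CD4 and odds ratios of S1pr1 and Klf2 2.29 in pancreas control CD4 and 3.32 in pancreas CD4-Cre CD8. Odds ratios of S1pr4 and Klf2 were 1.56 in pancreas control CD4 and 1.98 in lymph node control CD8. Klf2 ratios by Cd69 were 0.046 in pancreas control CD8 and -0.14 in pancreas CD4-Cre CD4 and odds ratio of Klf2 and Cd69 0.988 in pancreas control CD8. The share with S1pr1 was 25.8% in pancreas control B and S1pr1 ratio by Cd69 -0.046 in lymph node CD4-Cre CD8. Thinned to 1000 UMIs, odds ratios of S1pr1 and Klf2 were 2.16 in pancreas control CD4, 1.78 in pancreas control CD8, 1.54 in pancreas CD4-Cre CD4, 1.83 in pancreas CD4-Cre CD8, 1.72 in lymph node control CD4 and 1.61 in lymph node CD4-Cre CD4. The shares with S1pr1 were 29.1% in pancreas control CD4, 11.9% in pancreas control CD8, 15.2% in pancreas control B, 30.3% in pancreas CD4-Cre CD4, 17.9% in pancreas CD4-Cre CD8, 15.4% in pancreas CD4-Cre B, 28.1% in lymph node control CD4, 25.3% in lymph node control CD8, 27.4% in lymph node CD4-Cre CD4 and 24.1% in lymph node CD4-Cre CD8. The shares with Cd69 were 17.2% in pancreas control CD4, 18.5% in pancreas control CD8, 37.9% in pancreas control B, 15.9% in pancreas CD4-Cre CD4, 16.8% in pancreas CD4-Cre CD8, 35.2% in pancreas CD4-Cre B, 15.98% in lymph node control CD4, 13.6% in lymph node control CD8, 9.76% in lymph node CD4-Cre CD4 and 10.99% in lymph node CD4-Cre CD8. Klf2 ratios by Cd69 were 0.031 in pancreas control CD8, -0.45 in pancreas CD4-Cre CD8, -0.11 in lymph node control CD8 and -0.43 in lymph node CD4-Cre CD8. Odds ratio of S1pr1 and Cd69 was 0.482 in pancreas control CD8, odds ratio of Klf2 and Cd69 0.954 in pancreas CD4-Cre CD4 and odds ratio of S1pr1 and S1pr4 0.959 in lymph node control CD4. S1pr4 ratio by Cd69 was -0.48 in lymph node CD4-Cre CD8, odds ratio of S1pr4 and Klf2 0.707 in lymph node CD4-Cre CD8 and odds ratio of S1pr4 and Cd69 0.625 in lymph node CD4-Cre CD8. Without thinning, the shares with S1pr1 were 66.02% in pancreas control CD4, 34.4% in pancreas control CD8, 43.8% in pancreas control B, 66.6% in pancreas CD4-Cre CD4, 48.3% in pancreas CD4-Cre CD8, 45.1% in pancreas CD4-Cre B, 69.5% in lymph node control CD4, 73.4% in lymph node control CD8, 70.5% in lymph node CD4-Cre CD4 and 72.5% in lymph node CD4-Cre CD8. The shares with Cd69 were 36.1% in pancreas control CD4, 44.9% in pancreas control CD8, 69.2% in pancreas control B, 34.4% in pancreas CD4-Cre CD4, 41.9% in pancreas CD4-Cre CD8, 65.2% in pancreas CD4-Cre B, 42.5% in lymph node control CD4, 43.5% in lymph node control CD8, 27.00% in lymph node CD4-Cre CD4 and 34.5% in lymph node CD4-Cre CD8. Odds ratios of S1pr1 and Klf2 were 13.6 in pancreas control CD8, 5.5 in pancreas CD4-Cre CD4, 12.8 in pancreas CD4-Cre CD8, 2.5 in pancreas CD4-Cre B, 5.17 in lymph node control CD4, 4.28 in lymph node control CD8, 5.23 in lymph node CD4-Cre CD4 and 3.83 in lymph node CD4-Cre CD8. S1pr1 ratio by Cd69 was -0.39 in pancreas CD4-Cre CD4. Klf2 ratios by Cd69 were -0.17 in pancreas CD4-Cre CD4, -0.28 in pancreas CD4-Cre CD8, -0.31 in lymph node control CD4, -0.16 in lymph node control CD8 and -0.19 in lymph node CD4-Cre CD4. Odds ratios of S1pr4 and Klf2 were 1.97 in lymph node control CD8, 2.49 in lymph node CD4-Cre CD4 and 2.66 in lymph node CD4-Cre CD8. Odds ratios of S1pr1 and S1pr4 were 1.71 in lymph node CD4-Cre CD4 and 1.69 in lymph node CD4-Cre CD8. With at least 2 Cd69 UMIs, Klf2 ratios by Cd69 were -0.19 in pancreas CD4-Cre CD4, -0.36 in lymph node control CD4 and -0.014 in lymph node control CD8. S1pr4 ratio by Cd69 was -0.99 in lymph node CD4-Cre CD4.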

Other observations

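Interferon-response genes moved in the same libraries, in directions that differed by tissue and class, and are given as values. In lymph node CD4-Cre barcodes Ifit3 was higher than in control, at a log2 ratio of 1.40 in CD4-only and 0.73 in CD8-only barcodes, and Ifit1 at 0.76 in CD4-only barcodes, which is 2 of 10 and 1 of 10 genes of that list past 1.5-fold, with none lower. In pancreas T barcodes the same list had 2 of 10 genes lower in CD4-only (Ifit3 at -1.66, Usp18 at -0.66) and 3 of 10 in CD8-only barcodes (Ifit3 at -1.42, Isg20 at -0.68, Rtp4 at -0.61). In pancreas B barcodes Isg15 was higher at 2.53 and Irf7 at 0.83. Between tissues, 3 of 10 (control) and 6 of 10 (CD4-Cre) of these genes were lower in pancreas CD4-only barcodes than in lymph node ones, and 4 and 7 of 10 in CD8-only barcodes.

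Klf4, a factor related to Klf2, had 8 UMIs in CD4-only barcodes of pancreas control and 55 in pancreas CD4-Cre, a ratio of 1.61 (0.53 to 2.89), with 2 UMIs in those of lymph node CD4-Cre. In the same pancreas barcodes the myeloid gene Lyz2 was at 9.46 CPM in control and 180 CPM in CD4-Cre. Tyrobp, of NK and myeloid cells, was at 21.6 and 35.1 CPM. The share of barcodes with Lyz2 was 3.19% and 2.31%. The part of other cells in the Klf4 ratio was not tested.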
